A study of Mus musculus with 5 samples.

Results

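The mRNAs of 39 genes of mTORC1 and lysosomal nutrient sensing were followed in an RNA immunoprecipitation from wild-type mouse neocortex at E13.5. The genes were chosen by symbol: subunits of mTORC1 and mTORC2, Rheb and its TSC repressors, Ragulator, the Rag GTPases, the folliculin complex, GATOR1, GATOR2, the KICSTOR subunit Kptn, the sestrins, the S6 kinases and the MiT transcription factors. Each had 1 row among the 49875 gene IDs of the table. In such an experiment a lysate is incubated with an antibody, and RNA recovered together with the bound protein is sequenced.

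The samples were 2 libraries from precipitates with an antibody against eIF4E, the protein that binds the 5′ cap of mRNAs, 1 library from a precipitate with rabbit control immunoglobulin G (IgG), and 2 Input libraries of the cytoplasmic supernatant. All came from wild-type E13.5 cortex (labelled as neocortex and as forebrain), dissociated to single cells and lysed with a mild detergent. Replicates are labelled as biological for eIF4E and Input. Nothing tells whether they were separate litters, embryos or pools, so p-values cover only the spread between these libraries. The values are RSEM abundances per gene length, either TPM or FPKM (the table does not say which), and the number of reads behind them is unknown.

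mTORC1 is a kinase complex that drives protein synthesis and growth. It works on the surface of the lysosome, where the Rag GTPases, anchored by Ragulator, recruit it when amino acids are plentiful and where Rheb switches it on. GATOR1 and the TSC complex turn off the Rags and Rheb, and sestrins restrain GATOR2, which opposes GATOR1. Active mTORC1 phosphorylates S6 kinases and the 4E-BPs, the repressors that hold eIF4E, and keeps the lysosomal gene regulators TFEB, TFE3 and MITF out of the nucleus.

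The replicate libraries lay close together and the IgG library stood apart. Across the 12769 genes tested (value of at least 1 in at least 2 libraries), log2(value + 1) gave a Pearson's r of 0.989 for the eIF4E pair, 0.993 for the Input pair and 0.593 to 0.707 for IgG with each other library. These correlations run over genes, and genes are no independent replicates. The IgG library listed 11825 genes above 0, against at least 17412 in each of the other libraries, and mt-Rnr2 made up 5.22% of it. The neocortex markers Emx1, Pax6, Eomes and Tbr1 were above 0 in every library. Markers of other cells differed between the groups. The 6 erythroid markers summed to 4827 and 3617 in eIF4E, 1856 in IgG and 12464 and 13646 in Input, and the 6 endothelial and mural markers to 38.8 and 40.7 in eIF4E, 20.4 in IgG and 70.4 and 73.4 in Input. Sums of the 6 microglial markers were 22.2 and 17.6 in eIF4E, 22 in IgG and 40.3 and 48.6 in Input. Those of the 5 markers of meninges and mesenchyme were 95.1 and 91 in eIF4E, 271 in IgG and 134 and 115 in Input. Col3a1 carried the IgG sum, at 242, and 3 of these 5 markers were lower in IgG than in Input and 1 was higher. Sums of the 4 interneuron markers were 34.6 and 33.5 in eIF4E, 41.6 in IgG and 27.4 and 28.2 in Input. Of these markers of other cells, 9 were listed at 0 in IgG (Pdgfrb, Cldn5, Aif1, Csf1r, P2ry12, C1qa, Dcn, Lum and Gad1) and none in the other libraries. In such bulk samples fewer cells of a type and less RNA per cell cannot be told apart, and the part of these cells in the results below was not tested.

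Seen as a whole, the mRNAs of the module went both ways. Of the 37 members tested, 16 were higher and 13 lower in eIF4E than in Input (limma adjusted p under 0.05), while 43.3% of all genes tested were higher and 30.6% lower. The members' shares, 43.2% and 35.1%, lay near those figures. Their median log2 difference was 0.08, against 0.16 over all genes, and ran from −1.31 for Akt1s1 to 2.38 for Rps6kb1. The split was 13 higher and 16 lower after quantile normalization, where 4297 of all 12769 genes were higher and 5145 lower. It was 20 higher and 9 lower after rescaling to the same total, where 6503 of all genes were higher and 2748 lower. Tfeb and Mitf did not pass the filter on low values. Deptor, Fnip1 and Fnip2 passed it only through precipitate libraries and were all called higher than Input, so their calls were favoured by the filter. Among the 34 others, 13 were higher and 13 lower.

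Against the lone IgG library, which is assumed to vary like the other libraries, 17 of the 37 were higher in eIF4E and 16 lower, where 53.1% of all genes were higher and 30.6% lower. After rescaling to the same total 11 were higher and 16 lower, where 6061 of all 12769 genes were higher and 4828 lower. The median log2 difference of the members was 0.17, against 0.55 over all genes. Rescaling to the same total took the median of all genes to 0.26. IgG itself had 15 members above Input and 14 below, where 37.8% of all genes were above and 50.3% below. These values do not tell how much RNA a precipitate held, so higher or lower refers to the share of a library and not to an amount bound. The 3 comparisons share libraries with each other.

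**Figure D1:**
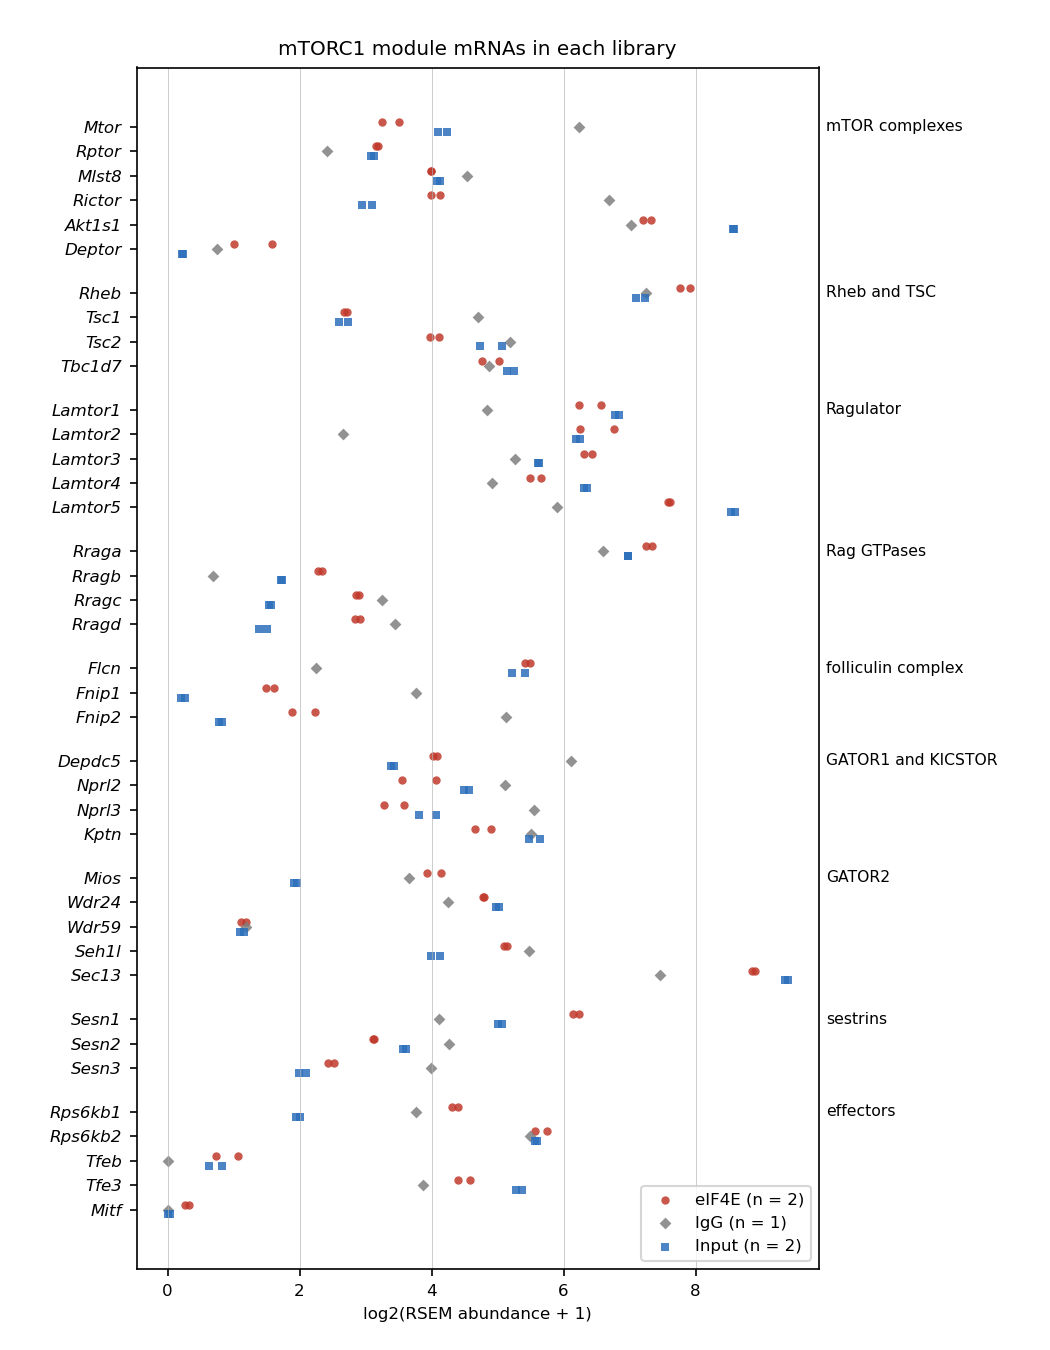
Abundance of the 39 mRNAs in each library, as log2(RSEM abundance + 1), grouped by role (circles, 2 eIF4E libraries; diamonds, 1 IgG library; squares, 2 Input libraries). The replicate symbols mostly touch, whereas the IgG symbol was the highest of the 5 for 15 and the lowest for 15 of the 37 members tested, where it was the highest for 32.7% and the lowest for 50.9% of all genes tested.

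The subunits of the mTOR complexes differed among themselves. Mtor, the kinase (chr4:148448582-148557685, GRCm38), measured 10.3 and 8.48 in the eIF4E libraries and 74.1 in IgG, against 17.8 and 16.1 in Input. Both eIF4E libraries lay below both Input libraries and far below IgG. The fall was log2 −0.79 against Input (SE 0.11, limma adjusted p = 0.00304) and −2.86 against IgG. Rictor, which defines mTORC2, stood at 16.6 and 14.9 in eIF4E and 102 in IgG, against 7.53 and 6.67 in Input, higher than Input (log2 1.05, SE 0.09, limma adjusted p = 0.000648) and lower than IgG (log2 −2.62). For Rptor, the scaffold that defines mTORC1, the values were 7.91 and 8.14 in eIF4E and 4.31 in IgG, against 7.73 and 7.49 in Input. It was higher than IgG (1.7-fold, limma adjusted p = 0.00172), and its difference from Input was log2 0.07 (limma adjusted p = 0.493). Mlst8, the subunit shared by both complexes, measured a mean of 14.9 in eIF4E and 22.2 in IgG, against a mean of 16.2 in Input. It was lower than IgG (log2 −0.55) and did not pass against Input (log2 −0.11, limma adjusted p = 0.178).

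The inhibitory subunits of the complex diverged as well. Akt1s1, which encodes PRAS40, was among the most abundant members, at 146 and 160.1 in eIF4E and 129 in IgG, against 382 and 379 in Input. Its fall to 0.403 of Input was the largest of the module (log2 −1.31, SE 0.06, limma adjusted p = 0.000109), while it stood 1.19-fold above IgG (limma adjusted p = 0.0259), a call that held under 4 of 11 alternatives and turned its direction under quantile normalization and after rescaling to the same total. Deptor was scarce, at 1.99 and 1.02 in eIF4E and 0.68 in IgG, against 0.18 and 0.17 in Input. Its rise over Input (log2 1.06, limma adjusted p = 0.0101) was lost without Input replicate 1 or 2 and under quantile normalization, where the adjusted p reached 0.0662 at most.

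Rheb, the GTPase that activates mTORC1, rose, and Tsc2 of its repressor fell. Rheb (chr5:24802823-24842361) measured 216 and 240.1 in eIF4E and 152 in IgG, against 150.2 and 136 in Input. Both eIF4E values exceeded all 3 others, with a fold change of 1.59 over Input (limma adjusted p = 0.00158, log2 0.67, SE 0.08) and of 1.5 over IgG (limma adjusted p = 0.00386). The call against IgG was lost under quantile normalization and after rescaling to the same total. Tsc2, the GTPase-activating subunit that turns Rheb off, measured 14.8 and 16.2 in eIF4E and 35.4 in IgG, against 25.7 and 32.6 in Input, and was lower than Input (log2 −0.86, SE 0.13, limma adjusted p = 0.00369) and lower than IgG (log2 −1.14). Tsc1, which stabilizes TSC2, stood at 5.39 and 5.57 in eIF4E and 25.1 in IgG, against 5.03 and 5.63 in Input, below IgG (log2 −2.01) with overlapping eIF4E and Input values. Tbc1d7, the remaining subunit, averaged 28.9 in eIF4E, 28.2 in IgG and 35.7 in Input, and passed neither test (limma adjusted p = 0.0532 against Input and 0.851 against IgG).

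All 5 Ragulator mRNAs, which encode the scaffold that anchors the Rags to the lysosome, were higher in eIF4E than in IgG. Of all genes tested, 53.1% were. The 5 calls remained under every alternative tried, each of which kept the lone IgG library. All 5 were also lower in IgG than in Input, as were 50.3% of all genes. Against Input 1 was higher in eIF4E and 3 were lower, where 43.3% of all genes were higher and 30.6% lower. Lamtor3 rose against both. It measured 78.4 and 85.2 in eIF4E and 37.5 in IgG, against 47.9 and 48.5 in Input, which put eIF4E 1.68-fold above Input (limma adjusted p = 0.000508, log2 0.75, SE 0.06) and 2.15-fold over IgG. Lamtor5 lay lowest against Input, at 194 and 190.1 in eIF4E and 59 in IgG, against 372 and 387 in Input, so that eIF4E stood between the others (log2 −0.98 against Input, SE 0.04, limma adjusted p = 0.000115, and 1.69 against IgG).

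The other Ragulator members followed between these. Lamtor2 measured 108 and 75.1 in eIF4E and 5.31 in IgG, against 71.8 and 74.9 in Input. Its difference from IgG was the largest rise of the module (log2 3.85, SE 0.22), whereas against Input it did not pass (limma adjusted p = 0.199) and its eIF4E replicates lay far apart. Lamtor4 measured 49.5 and 44.2 in eIF4E and 29.2 in IgG, against 78.4 and 80.9 in Input, a fall to 0.592 of Input (limma adjusted p = 0.000815). Lamtor1, the lipid-anchored subunit, measured 93.6 and 74 in eIF4E and 27.8 in IgG, against 109 and 114 in Input, or 0.751 of Input (limma adjusted p = 0.0321), a call lost without Input replicate 1 or 2 and under 4 other alternatives.

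The 4 Rag GTPase mRNAs were all higher in eIF4E than in Input, where 43.3% of all genes tested were. However, Rraga lost its call under median-of-ratios scaling and Rragb under quantile normalization. RagA or RagB pairs with RagC or RagD, and the loaded pair binds mTORC1. Rraga, by far the most abundant, measured 151 and 161 in eIF4E and 95.6 in IgG, against 125 and 124 in Input (log2 0.32, SE 0.05, limma adjusted p = 0.00449), a difference that median-of-ratios scaling took to 0. Rragb stood at 4.04 and 3.84 in eIF4E and 0.61 in IgG, against 2.32 and 2.29 in Input (log2 0.58, SE 0.10, limma adjusted p = 0.00605). These A and B forms were also higher than IgG, by 1.63-fold and 3.07-fold, although quantile normalization took the difference of Rragb to log2 0.01.

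The C and D forms were lower than IgG. Rragc measured 6.44 and 6.27 in eIF4E and 8.54 in IgG, against 1.96 and 1.9 in Input (log2 1.33 against Input, SE 0.09, limma adjusted p = 0.000296). Rragd, a known target of the MiT factors, measured 6.13 and 6.58 in eIF4E and 9.93 in IgG, against 1.85 and 1.62 in Input (log2 1.43 against Input, SE 0.10, limma adjusted p = 0.000336). Against IgG their differences were log2 −0.38 and −0.57, and the call of Rragc was lost when any 1 of the 4 eIF4E and Input libraries was left out (limma adjusted p up to 0.0856).

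Promoter sites with the palindrome CACGTG are shown for Rag and Ragulator genes and for Rheb. Rag and Ragulator products act upstream of TFEB, TFE3 and MITF, which bind DNA sites built on this palindrome. RefSeq windows of GRCm38.p6, from 250 bases before to 50 after the annotated start, matched 34 of the 39 members (40 windows). CACGTG occurred in 17.5% of these windows and in 7.15% of the 32851 windows of all genes. The median GC content was 60% in the members' windows and 52.7% in all. The longer TCACGTGA, which contains it, occurred in 0 of the 40 and in 0.974% of all. Both are their own reverse complement, so 1 search covers both strands. The 7 genes with a match were Rragb, Rragc, Lamtor1, Lamtor4, Rheb, Fnip1 and Tbc1d7. Of these, 4 were higher than Input (Rragb, Rragc, Rheb, Fnip1) and 2 lower (Lamtor1, Lamtor4), where 43.3% of all genes were higher and 30.6% lower. Fnip1 had passed the filter only through precipitate libraries. A match is a description of the letters and no evidence of binding. One site upstream of the annotated start of a window is printed for each of 5 genes. The Rragb site lies inside the RefSeq span of that gene, upstream of an internal start. Sequences run 5′ to 3′ on the gene's strand with the motif in capitals.
Rragb (chrX:153139910-153139939, plus strand): aaagggtagcggCACGTGacaggccctggg
Rragc (chr4:123917309-123917338, plus strand): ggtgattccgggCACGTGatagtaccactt
Rheb (chr5:24842440-24842469, minus strand): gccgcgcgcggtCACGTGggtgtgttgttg
Lamtor1 (chr7:101905757-101905786, plus strand): ctgccttcctatCACGTGccgcgggtccgc
Lamtor4 (chr5:138255350-138255379, plus strand): gcagaaagttaaCACGTGaacagcttttca

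The folliculin complex, which activates RagC and RagD by stimulating their GTP hydrolysis, had both partner subunits higher than Input, while its core subunit passed only against IgG. Flcn measured 41.7 and 44 in eIF4E and 3.75 in IgG, against 41.6 and 36.2 in Input, 9.23-fold above IgG (limma adjusted p = 3.09e-05) and without a call against Input (limma adjusted p = 0.219). Fnip1 measured 2.06 and 1.82 in eIF4E and 12.6 in IgG, against 0.2 and 0.15 in Input (log2 1.32 against Input, SE 0.11, and −2.21 against IgG). Fnip2 measured 2.7 and 3.71 in eIF4E and 34.1 in IgG, against 0.78 and 0.71 in Input (log2 1.26 against Input, SE 0.15, and −3.07 against IgG). In Input both Fnip mRNAs lay below 1, so they passed the filter only through precipitate libraries and their calls against Input were favoured by it. In IgG they were far above every other library.

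The mRNAs of GATOR1 and KICSTOR, which hold mTORC1 back when amino acids are scarce, were all lower in eIF4E than in IgG. Of the 4, 3 were lower than Input too. Of all genes tested, 30.6% were lower in each comparison and 7.2% in both. The calls against IgG held under every alternative tried, each of which kept the lone IgG library. Nprl2 stood at 15.8 and 10.8 in eIF4E and 33.5 in IgG, against 21.5 and 22.7 in Input (log2 −0.71 against Input, SE 0.18, limma adjusted p = 0.0204). Nprl3 stood at 8.67 and 11 in eIF4E and 45.8 in IgG, against 15.8 and 13.1 in Input (log2 −0.51 against Input, SE 0.15, limma adjusted p = 0.0311). Kptn, a subunit of the KICSTOR tether of GATOR1, measured 28.8 and 24.4 in eIF4E and 44.5 in IgG, against 43.6 and 48.9 in Input, lower than Input (log2 −0.78, SE 0.11, limma adjusted p = 0.00253) and lower than IgG (log2 −0.73). Depdc5, another subunit of GATOR1, differed from these, at 15.2 and 15.9 in eIF4E and 68.4 in IgG, against 9.75 and 9.46 in Input, 1.56-fold above Input (limma adjusted p = 0.00108). The calls of Nprl2 and Nprl3 against Input were lost without Input replicate 1 or 2, and that of Nprl3 also without eIF4E replicate 1, with adjusted p up to 0.117 and 0.156 over all alternatives.

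In GATOR2, the opponent of GATOR1, Mios and Seh1l rose over Input while Sec13 and Wdr24 fell. Mios (chr6:8209111-8240573) measured 14.2 and 16.6 in eIF4E and 11.7 in IgG, against 2.9 and 2.76 in Input. Both eIF4E values were several-fold above Input (4.28-fold, log2 2.10, SE 0.11, limma adjusted p = 0.000144) and slightly above IgG (1.29-fold, limma adjusted p = 0.0492), the second call being lost under 9 of 11 alternatives. Seh1l, also part of the nuclear pore, stood at 33.4 and 34.4 in eIF4E and 43.5 in IgG, against 16.5 and 15 in Input (log2 1.06, limma adjusted p = 0.000302). Sec13, which also serves the nuclear pore and the COPII coat of secretory vesicles, was the most abundant member, at 463 and 478 in eIF4E and 174 in IgG, against 675 and 657 in Input (log2 −0.50, SE 0.04, limma adjusted p = 0.000477), and it lost its call against Input under quantile normalization. Wdr24 measured 26.5 and 26.7 in eIF4E and 18.1 in IgG, against 31.6 and 30.6 in Input. Its small fall (log2 −0.22, limma adjusted p = 0.026) was lost when any 1 eIF4E or Input library was left out. Wdr59 lay between 1.14 and 1.29 in all 5 libraries and passed neither test.

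The sestrins, stress-induced inhibitors of GATOR2, separated. Sesn1, a p53 target, measured 69.9 and 74.2 in eIF4E and 16.2 in IgG, against 32.6 and 31.3 in Input. It stood 2.22-fold above Input (limma adjusted p = 0.000165, log2 1.15, SE 0.06) and 4.24-fold above IgG (log2 2.08, SE 0.08), with no overlap in either comparison, and both calls held under every alternative tried. Sesn2, the leucine sensor, measured 7.7 and 7.65 in eIF4E and 18.2 in IgG, against 10.8 and 11.2 in Input, lower than both (log2 −0.47 and −1.15, limma adjusted p = 0.0041 against Input and 0.000293 against IgG). Sesn3 stood at 4.39 and 4.73 in eIF4E and 14.8 in IgG, against 2.99 and 3.26 in Input. Its rise over Input (log2 0.43, limma adjusted p = 0.0138) was lost without eIF4E replicate 2 or Input replicate 1 and under median-of-ratios scaling, and turned to −0.16 under quantile normalization.

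Among the effectors, Rps6kb1 was higher than both controls and Rps6kb2 passed neither test. Rps6kb1, the gene of S6K1 (chr11:86498869-86544885), measured 20.1 and 18.8 in eIF4E and 12.5 in IgG, against 2.85 and 3.01 in Input. Both eIF4E libraries exceeded the other 3. On the scale of value + 1, its rise over Input was the largest in the module (5.2-fold, log2 2.38, SE 0.08, limma adjusted p = 7.66e-05). This rank depends on the pseudocount. With a pseudocount of 0.1, the scarce Fnip1 reached log2 2.89, whereas Rps6kb1 reached at most 2.69 under any alternative. The rise of Rps6kb1 over IgG was smaller (1.51-fold, limma adjusted p = 0.0044) and was lost after rescaling to the same total (limma adjusted p = 0.0579). Rps6kb2, the gene of S6K2, measured 46.6 and 52.8 in eIF4E and 44.1 in IgG, against 47.6 and 46.4 in Input, with overlapping values and no call (limma adjusted p = 0.41 against Input and 0.167 against IgG).

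Of the MiT factors, which drive lysosomal and autophagy genes, only Tfe3 was abundant enough to test. Tfe3 measured 20.2 and 23 in eIF4E and 13.7 in IgG, against 40.4 and 37.9 in Input, below Input (log2 −0.83, SE 0.09, limma adjusted p = 0.00111) and above IgG (1.54-fold), the second call being lost after rescaling to the same total (limma adjusted p = 0.0657). Tfeb measured 0.67 and 1.1 in eIF4E, was listed at 0 in IgG and measured 0.54 and 0.78 in Input. Mitf measured 0.25 and 0.2 in eIF4E, was listed at 0 in IgG and in Input replicate 2, and measured 0.03 in Input replicate 1.

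**Figure D2:**
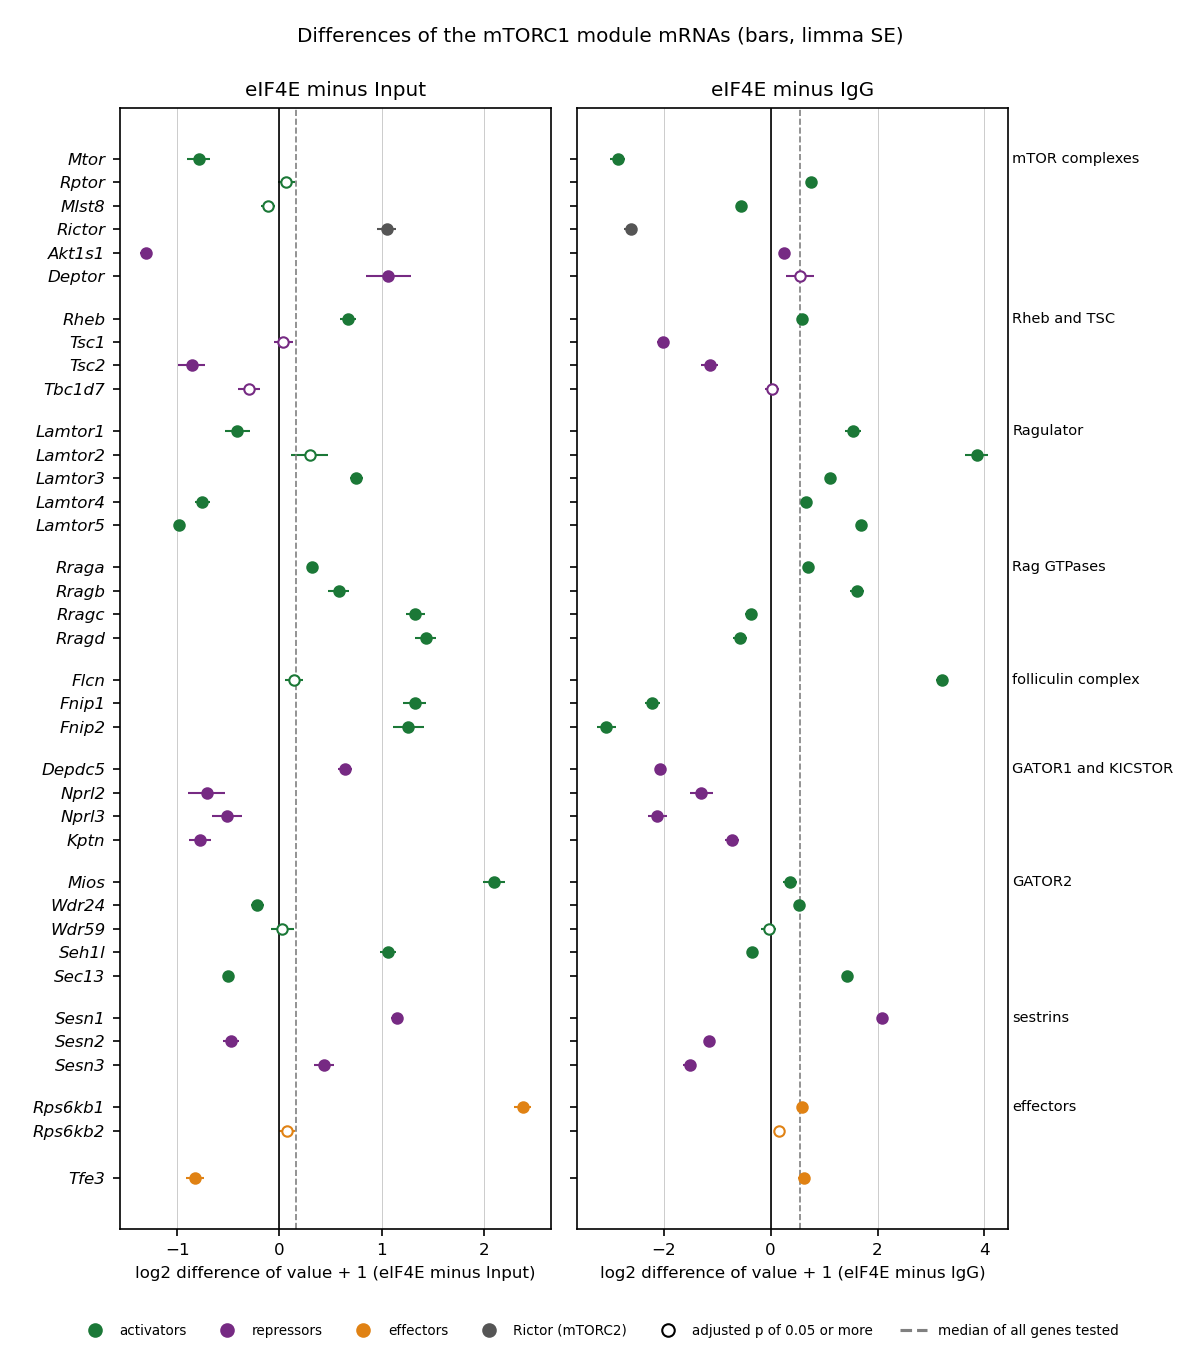
Log2 difference of value + 1 with its limma SE for the 37 members tested, eIF4E minus Input on the left and eIF4E minus IgG on the right, coloured by class (open circles, adjusted p of 0.05 or more). Rps6kb1 and Mios lie furthest to the right against Input. All 5 Ragulator mRNAs lie right of 0 against IgG, as does the median of all genes tested (0.55).

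The first bases from an annotated start of 5 members with large differences are shown because eIF4E binds at the 5′ end of the mRNA. mRNAs with a terminal oligopyrimidine start, a C followed by at least 4 bases that are each C or T, are the classical translational targets of mTORC1. None of the members' 40 windows began so at the annotated start, against 2.51% of the windows of all genes. RefSeq starts need not be the ones used in this tissue. The starts printed for Rps6kb1, Mios and Akt1s1 lie inside the RefSeq span of the gene, that of Akt1s1 furthest (span from chr7:44849224). Capitals mark the first 20 bases from the annotated start and lower case the 10 before them. The first 3 genes were higher and the last 2 lower in eIF4E than in Input.
Rps6kb1 (chr11:86544788-86544817, minus strand): gcgccggagcTGAACTTGAGGAGCCAGTCT
Mios (chr6:8209217-8209246, plus strand): cgggcgagggGAAGGCGGGGCTCGCGGCGA
Rragd (chr4:32982988-32983017, plus strand): gggtgtgggtAGAAAGCCTGAAGACCGCAG
Akt1s1 (chr7:44850362-44850391, plus strand): ttgtgttcctAGAGCAGGGGCCTCTCTGGG
Lamtor5 (chr3:107278848-107278877, plus strand): tacagattgcTTTGAAGGCCCAGCACCCCC

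Taking both controls together, 7 members were higher in eIF4E than in Input and in IgG: Rps6kb1, Mios, Sesn1, Lamtor3, Rheb, Rragb and Rraga. They made up 18.9% of the 37, where 19.8% of all genes tested met that rule. Lower than both were 6 members, Mtor, Tsc2, Kptn, Nprl2, Nprl3 and Sesn2, or 16.2%, against 7.2% of all genes. Of the first 7, Sesn1 and Lamtor3 kept their place under all 11 alternatives, and of the 6, Mtor, Tsc2, Kptn and Sesn2 did. After quantile normalization the counts were 4 higher and 9 lower, and the share of all genes under that setting was not counted.

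By class, the 21 activators (mTORC1 core, Rheb, Ragulator, Rags, folliculin complex and GATOR2) had 10 higher and 6 lower than Input, and the 12 repressors (the TSC subunits, GATOR1, Kptn, the sestrins, Akt1s1 and Deptor) had 4 higher and 6 lower. Rictor was kept apart. These were 47.6% and 28.6% of the activators, near the 43.3% and 30.6% of all genes, and 33.3% and 50% of the repressors. Their median log2 differences were 0.29 for activators and −0.39 for repressors, with 0.16 over all genes. Fnip1 and Fnip2 among the activators and Deptor among the repressors are in these figures, and the filter favoured their calls over Input. The classes were not counted without these genes. Against IgG 13 activators were higher and 7 lower (median log2 0.59), while 2 repressors were higher and 8 lower (median −1.14), with 0.55 over all genes. These were 61.9% and 33.3% of the activators and 16.7% and 66.7% of the repressors, where 53.1% and 30.6% of all genes were called. Of those higher than both controls 5 were activators, 1 was a repressor and 1 an effector. Of those lower than both 1 was an activator, Mtor, and 5 were repressors. The difference between the classes was not tested, and activators and repressors each had members on either side of 0 in both comparisons.

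**Figure D3:**
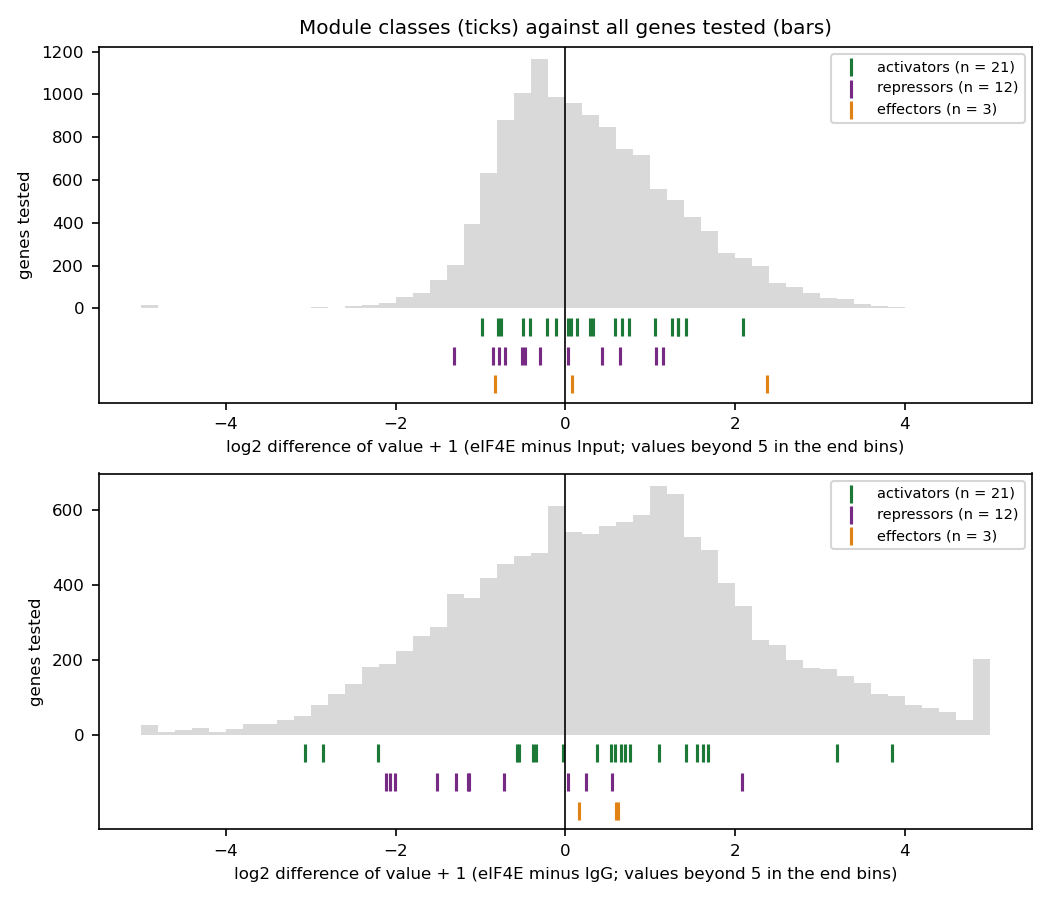
Log2 differences of value + 1 for all 12769 genes tested (bars, number of genes) and for the members of each class (ticks), eIF4E minus Input above and eIF4E minus IgG below. Activators spread over both sides, and 8 of the 12 repressors lie below 0 against IgG with a call.

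Ratios of partner genes within a library do not depend on the factor between TPM and FPKM or on scaling, apart from the pseudocount. Of 12 pairs, 8 had a higher ratio in both eIF4E libraries than in both Input libraries, 1 had a lower one and 3 overlapped. The choice of numerator sets the direction of a pair, and the pairs were chosen with earlier results of these data known. No share over other gene pairs was counted, so the 8 of 12 are no result about these pairs. The part of gene span in these ratios was not tested. With 2 libraries against 2, an exact two-sided permutation test cannot go below p = 0.333, so these are descriptions. The log2 ratio of Rps6kb1 to Rps6kb2 was −1.18 and −1.44 in eIF4E and −1.74 in IgG, against −3.66 and −3.56 in Input. S6K2 mRNA was thus the more abundant per length in every library, by less in the precipitates than in Input. For Mios to Wdr24 the log2 ratio was −0.85 and −0.65 in eIF4E and −0.59 in IgG, against −3.06 and −3.07 in Input. Rictor to Rptor, the defining subunits of mTORC2 and mTORC1, was 0.98 and 0.8 in eIF4E and 4.28 in IgG, against −0.03 and −0.15 in Input.

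On the scale of value + 1, the other pairs differed by less than those of the S6 kinases and of Mios and Wdr24, or overlapped. This order depends on the pseudocount, which narrows ratios that involve scarce mRNAs such as Fnip1 (0.2 and 0.15 in Input). Fnip1 to Flcn was −3.8 and −4 in eIF4E and 1.52 in IgG, against −5.15 and −5.02 in Input. Tsc1 to Tsc2 was −1.31 and −1.39 in eIF4E and −0.48 in IgG, against −2.14 and −2.34 in Input, and Sesn3 to Sesn2 was −0.69 and −0.59 in eIF4E and −0.28 in IgG, against −1.57 and −1.52 in Input. Lamtor3 to Lamtor2 was −0.46 and 0.18 in eIF4E and 2.61 in IgG, against −0.57 and −0.62 in Input, and Mitf to Tfe3, with Mitf near 0, was −4.08 and −4.32 in eIF4E and −3.87 in IgG, against −5.33 and −5.28 in Input. Rraga to Rragb was the pair with the lower ratio, at 4.92 and 5.07 in eIF4E and 5.91 in IgG, against 5.25 in each Input library. The pairs Rragc to Rragd, Nprl3 to Nprl2 and Fnip1 to Fnip2 overlapped between eIF4E and Input. In 9 of the 12 pairs the IgG ratio lay above both eIF4E ratios, and in 3 below.

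**Figure D4:**
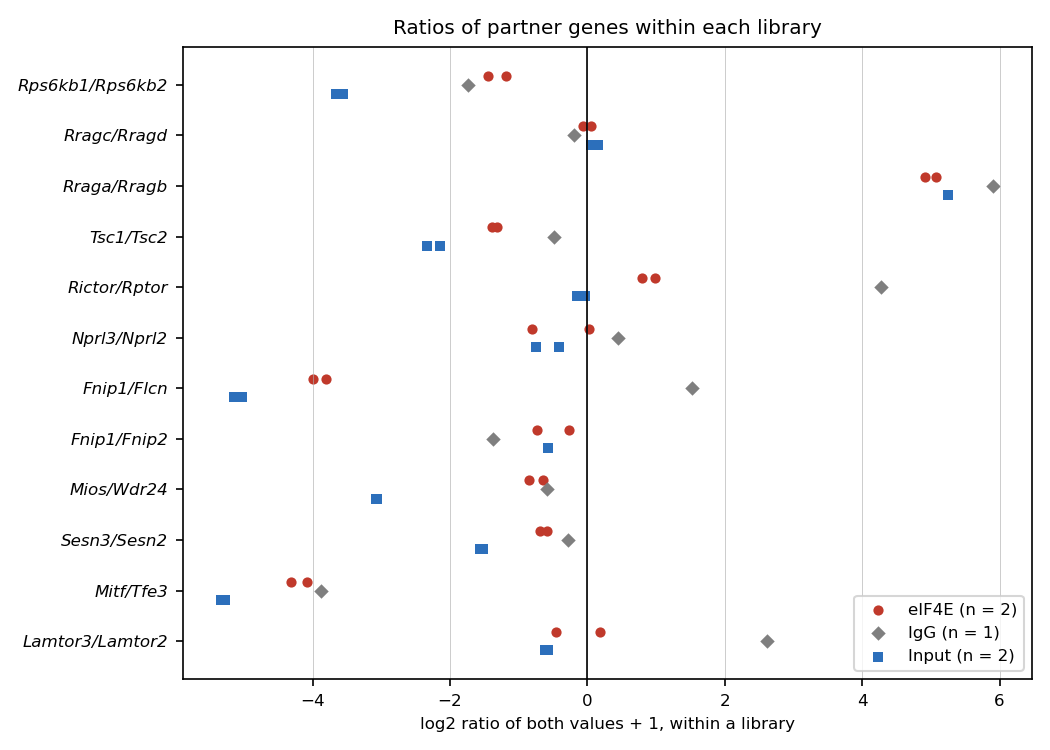
Log2 ratio of both values + 1 for 12 pairs of partner genes within each library (circles, 2 eIF4E libraries; diamonds, 1 IgG library; squares, 2 Input libraries). The ratios of Rps6kb1 to Rps6kb2 and of Mios to Wdr24 are over 2 log2 units higher in eIF4E than in Input, and the IgG ratio is close to that of eIF4E in both.

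The members' differences went with the length of the gene on the chromosome. Genomic spans in GRCm38 ran from 1.61 kb (Rraga) to 297 kb (Rptor). Among the 19 tested members with the longer spans, 20.6 kb or more, 13 were higher in eIF4E than in Input and 3 lower (median log2 0.67). Deptor, Fnip1 and Fnip2, whose calls the filter favoured, are among the 13, and without them 10 of 16 were higher and 3 lower (median log2 0.61). Of the 18 with spans of 19.8 kb or less, 3 were higher and 10 lower (median −0.36). Of all genes tested, 43.3% were higher and 30.6% lower, and the shares among all genes of like span were not counted. Against IgG the order was the other way, with medians of −0.57 for longer and 0.58 for shorter spans, and IgG minus Input had medians of 1.73 and −0.56.

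Over all tested genes the correlations had the same signs as over the members. Spearman's rho between span and the log2 difference of eIF4E minus Input was 0.45 over the 37 members and 0.40 over 12393 tested genes that matched the RefSeq table. For eIF4E minus IgG it was −0.38 over the members and −0.26 over the genes, and for IgG minus Input 0.58 and 0.39. These values describe genes measured in the same 5 libraries and carry no p. Span includes introns and is not the length of the mRNA, and the part of length in the differences between classes was not tested. Repressors with long spans lay on either side of 0 against Input, Sesn1 (97.9 kb) and Depdc5 (131 kb) above and Tsc2 (36.9 kb) below, and Mtor (109 kb) fell although its span is long.

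**Figure D5:**
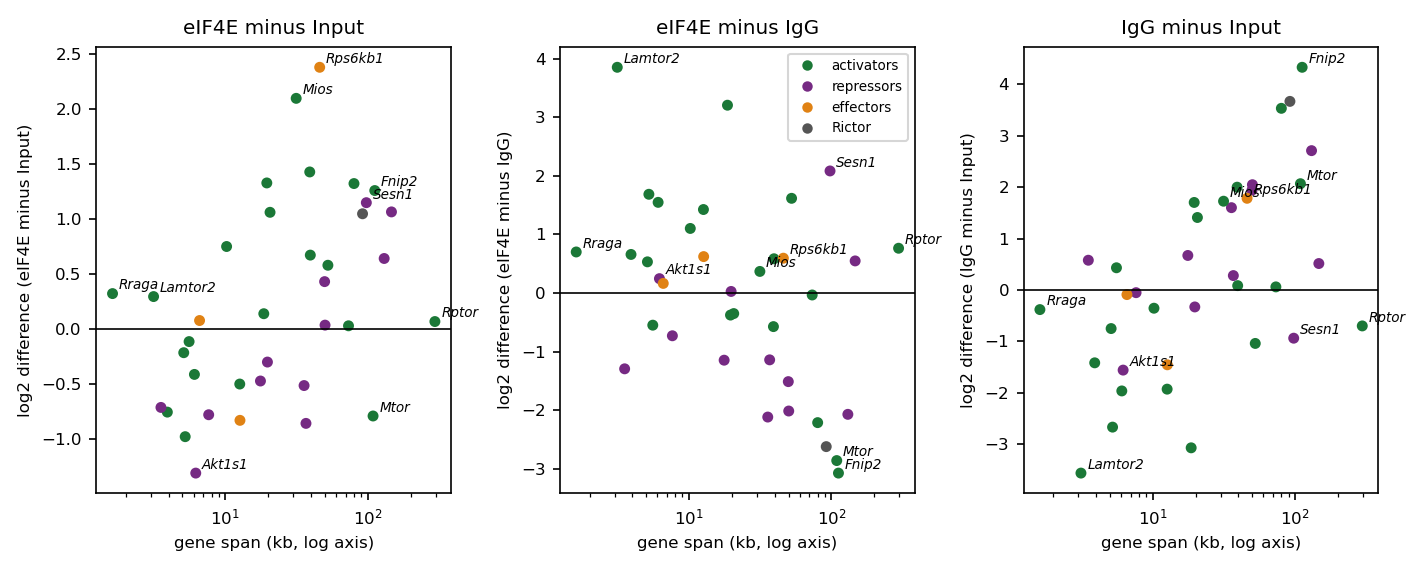
Log2 difference of value + 1 against the genomic span of each of the 37 members tested (log axis, kb), for eIF4E minus Input, eIF4E minus IgG and IgG minus Input, coloured by class. Long genes lie higher in the left and right panels and lower in the middle one, with Mtor below 0 in the left one despite its 109 kb.

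Of 67 other genes of the pathway (insulin and PI3K signalling, AMPK, amino acid transport, and mTORC1 substrates), 63 were tested. Their counts, 27 higher and 23 lower than Input and 28 higher and 21 lower than IgG, were 42.9%, 36.5%, 44.4% and 33.3% of the 63, where all genes had 43.3%, 30.6%, 53.1% and 30.6%. Their median log2 differences were 0.14 against Input and 0.12 against IgG, with 0.16 and 0.55 over all genes. On the scale of value + 1, the largest rises over Input were in Cab39, the scaffold of the AMPK-activating kinase LKB1 (24.5 and 25 in eIF4E and 14 in IgG, against 2.89 and 2.76 in Input), Rb1cc1 (6.44-fold) and Ulk2 (6.07-fold), partners in the autophagy-starting kinase complex, and Pik3ca (4.68-fold), a catalytic subunit of PI3-kinase. Input means of Rb1cc1, Ulk2 and Pik3ca were only 0.265, 0.655 and 0.59, against 7.125, 8.985 and 6.28 in eIF4E. The order of the named genes thus depends on the pseudocount. Of these Cab39 and Ulk2 were also higher than IgG, Rb1cc1 was lower, and Pik3ca did not pass (limma adjusted p = 0.17). The largest falls were in Lars2, the mitochondrial leucyl-tRNA synthetase (20.2 and 18.7 in eIF4E and 73.4 in IgG, against 164 and 158 in Input), Slc3a2 (0.333 of Input), the heavy chain of the leucine transporter, Eef2 (0.336), the elongation factor, and Slc1a5 (0.511), a glutamine transporter. Against IgG Slc3a2 was higher (2.27-fold), Lars2 and Eef2 were lower, and Slc1a5 did not pass (limma adjusted p = 0.0527).

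The libraries do not record strand, and 4 members overlap another tested gene on the chromosome, Tsc2 with Pkd1, Nprl2 with Cyb561d2, Nprl3 with Mpg and Rps6kb1 with Rnft1, so reads from the shared stretches cannot be assigned between them with certainty. Pkd1 averaged 5.54 in eIF4E and measured 43.2 in IgG, against a mean of 2.96 in Input. Cyb561d2 averaged 25.2 in eIF4E and measured 27.6 in IgG, against 53.6 in Input. Mpg averaged 27.4 in eIF4E and was listed at 0 in IgG, against 33.5 in Input. Rnft1 averaged 1.79 in eIF4E and measured 15.7 in IgG, against 0.945 in Input. The shared stretches are 699 bases for Pkd1, 17 for Cyb561d2, 740 for Mpg and 139 for Rnft1.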

How the data were processed

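The authors deposited 1 table with a column per library. Per the labels' protocols, RNA was taken from the cytoplasmic supernatant of dissociated E13.5 cortex, precipitated on magnetic beads or kept as Input, and turned into Smart-seq2 libraries, a poly(A)-primed method that records neither strand nor molecules. Per the submitters' processing notes, the tools were RSEM 1.3.3 and STAR 2.7.9a and the genome build was mm10. The deposited values are a signal that is never negative, an RSEM abundance, with column totals between 560076 and 848550. Its kind (TPM or FPKM), the annotation version and any row filter were not given in the sources used here. The depth is unknown, and intervals for counting error were therefore left out.

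From 50161 rows, 286 exact repeats of a gene ID were removed. A gene entered the test (12769 did) when 2 or more of the 5 libraries reached a value of 1. The scale was log2(value + 1), on which fold changes of scarce mRNAs are understated. The model was 1 limma fit (version 3.58.1, R 4.3.3) of the 5 libraries in 3 groups, using eBayes with an abundance trend. Its p-values are two-sided, adjusted by Benjamini-Hochberg over all genes and read at 0.05, with 2 residual and, at the median, 2.571 prior degrees of freedom. On simulated data drawn around the Input means, only the comparison of eIF4E with Input was tried. The comparisons with the lone IgG library were not tested in this way. Every member is named. Values in every library are given for the extremes of each role group, for paired genes and for members past the threshold in the same direction against both controls. The 4 largest rises and falls of the wider list are named. Members, lists and rules were chosen with earlier results of these data known. Gene spans and promoter windows are from RefSeq (GRCm38.p6, the assembly of mm10), matched by symbol. Spans stand in for protein lengths, which were not used here, a choice made after seeing the data, as was the count of long genes without scarce members. Alternatives covered the pseudocount, the filter, the scaling, the prior, the replicates and the block. The full neocortex marker list is not reported here.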

Additional observations from a re-analysis of the deposited data

How the results depend on the processing

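Over 888 values of single members under the alternatives, 796 kept their direction and their side of the threshold, 54 no longer passed, 13 newly passed and 25 turned, 5 of these in members that had passed. The counts of members stayed within 1.5 times, with these exceptions. After rescaling to the same total 11 were higher in eIF4E than in IgG, where 6061 of all 12769 genes were. Under that setting 23 were higher in IgG than in Input, where 5832 of all genes were. Quantile normalization left 4 higher than both controls, and the share of all genes was not counted there. Fits without 1 eIF4E or Input library leave 1 library in a group, so their numbers of calls are left out. In these fits the median log2 difference of all genes was 0.15 to 0.17 for eIF4E minus Input and 0.53 to 0.55 for eIF4E minus IgG. Over all genes, median-of-ratios scaling and quantile normalization each moved the median log2 difference of eIF4E minus Input to −0.11 and rescaling to the same total to 0.36, against 0.16 as deposited. For eIF4E minus IgG it was 0.51, −0.04 and 0.26 under these 3, against 0.55 as deposited. For IgG minus Input, rescaling to the same total took it from −0.43 to 0.03.

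Directions that turned in eIF4E minus Input were, under median-of-ratios scaling, Rptor (log2 −0.22), Tsc1 (−0.24), Lamtor2 (−0.03), Rraga (0.00), Flcn (−0.18), Wdr59 (−0.15) and Rps6kb2 (−0.24), under quantile normalization Rptor (−0.46), Tsc1 (−0.61), Wdr59 (−0.32) and Sesn3 (−0.16), and after rescaling to the same total Mlst8 (0.11) and Wdr24 (0.02). In eIF4E minus IgG, quantile normalization turned Akt1s1 (−0.23) and Deptor (−0.94), the same total turned Akt1s1 (−0.10), Tbc1d7 (−0.31) and Rps6kb2 (−0.18), and median-of-ratios scaling turned Tbc1d7 (−0.02). Leaving out 1 library gave ranges that crossed or reached 0 for Tsc1 (−0.03 to 0.1), Wdr59 (−0.01 to 0.07) and Rps6kb2 (−0.01 to 0.17) against Input, and for Tbc1d7 (−0.1 to 0.15) and Wdr59 (−0.07 to 0.01) against IgG. The cause was not tested.

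With the replicate number as a block, on the eIF4E and Input libraries only, 16 members were higher and 11 lower, Nprl3 and Wdr24 losing their calls. Of all 12769 genes, 5401 were higher and 3749 lower under that setting. Deviations of same-numbered libraries correlated with r = 0.024, so the numbers are not shown to pair the libraries. The depth is unknown, which limits what can be said of members below 1, Tfeb and Mitf first.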

Other observations

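Among the wider pathway genes, these were chosen after their values were seen, for the distance of the lone IgG library from the others. Slc38a9, the lysosomal arginine sensor, measured 4.35 and 2.7 in eIF4E and 92.4 in IgG, against 1.93 and 1.66 in Input. Insr, the insulin receptor gene, measured 13.6 and 13.4 in eIF4E and 94.5 in IgG, against 21.7 and 21.5 in Input. Prr5l, which encodes a partner of mTORC2, measured 14.2 and 14.4 in eIF4E, was listed at 0 in IgG and measured 21.8 and 22.3 in Input. Its paralog Prr5 measured 1.53 and 2.16 in eIF4E and 17.6 in IgG, against 3.13 and 3.47 in Input. Both Prr5 genes fell against Input (limma adjusted p = 0.00206 for Prr5l and 0.017 for Prr5), and against IgG they lay on opposite sides.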
